A study of Mus musculus with 9 samples.

Results

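Dividing cells switch on a shared set of genes, and 45 of them were read here in ischaemic mouse leg muscle. The members were taken by gene symbol from a table of 55335 genes. Each of the 45 symbols matched 1 row, and all 45 passed the filter on low counts. They comprise 9 S-phase members (Mcm2 to Mcm7, Pcna, Rrm2 and Tyms), 32 members of G2 and mitosis, and 4 others (Ccne1, Ccne2, E2f1 and Stmn1).

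The RNA came from leg muscles of 9 wild-type (WT) c57b6l mice, all put through a hindlimb suspension ischemia model. The first group was 3 mice given aspirin together with a peptide hydrogel, the second was 3 mice given aspirin alone, and the third was 3 untreated control mice that shared the ischaemia. Aspirin is a cyclooxygenase inhibitor and was given against inflammation, and a peptide hydrogel is a water-rich gel of self-assembling peptides. The hydrogel was not given without aspirin, so the groups cannot separate the gel from its combination with the drug. The age and sex of the mice, the doses, the muscles taken and the time after ischaemia are absent from the descriptions used here. The groups also have different leading numbers in their sample codes. The number is 8 for aspirin-hydrogel and 9 for control. In the aspirin group it is 7 for replicates 1 and 2 and 10 for replicate 3. What those numbers stand for is not given, and if they are a batch, batch and group cannot be told apart.

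A cell that enters division first needs cyclin E and E2F activity, which turn on the genes for DNA replication. In S phase the MCM helicase unwinds the DNA, PCNA holds the polymerase on it, and ribonucleotide reductase and thymidylate synthase make its building blocks. In G2 a second wave of genes, bound by FOXM1 and the DREAM and MuvB complexes, supplies the cyclins, kinases, kinesins and checkpoint proteins of mitosis. Adult muscle fibres do not divide. In injured muscle the dividing cells are known to include satellite cells, fibroblasts, endothelial cells and infiltrating leucocytes. In a bulk sample, fewer cells of a type and less RNA per cell cannot be told apart.

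The promoters show the letters by which the replication and mitotic members are usually told apart. Promoter windows from RefSeq (GRCm38.p6, 250 bases before to 50 bases after the start) were available for 37 of the 45 members. The cell cycle homology region (CHR, the letters TTTGAA or TTCGAA) was in the windows of 21 of 27 mitotic members (77.8%), against 5854 of 27025 genes (21.7%). It was in 2 of 8 S-phase members (25.0%), Mcm2 and Mcm7. The CCAAT box, to which NF-Y binds, was in 22 of 27 mitotic members (81.5%) and 7 of 8 S-phase members (87.5%), against 41.1% of all genes. The E2F letters (TTTCCCGC, TTTCGCGC, TTTGCCGC or TTTGGCGC) were in 1 of 27 mitotic members (3.70%) and 4 of 8 S-phase members, against 2.6% of all genes. Both strands were read for each motif, TTCGAA is its own reverse complement, and a motif can overlap another. A match is a run of letters and not a measured binding site.

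The 140 bases before the start of 7 members follow, because together they hold all 3 motifs in mitotic and MCM members whose levels are given later. Each is written 5′ to 3′ on the gene's strand, and capitals mark CHR, CCAAT and E2F letters. The first 4 belong to mitotic members and the last 3 to members of the MCM helicase. Cdc20 is on chromosome 4 at chr4:118437344-118437483 (minus strand), Cdk1 at chr10:69352913-69353052 (minus), Mki67 at chr7:135716380-135716519 (minus), Ccnb2 at chr9:70421555-70421694 (minus), Mcm6 at chr1:128359706-128359845 (minus), Mcm5 at chr8:75109369-75109508 (plus) and Mcm2 at chr6:88898781-88898920 (minus).
Cdc20: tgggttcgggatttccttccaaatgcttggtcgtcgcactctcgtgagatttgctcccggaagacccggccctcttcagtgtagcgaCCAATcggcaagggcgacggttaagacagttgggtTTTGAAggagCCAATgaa
Cdk1: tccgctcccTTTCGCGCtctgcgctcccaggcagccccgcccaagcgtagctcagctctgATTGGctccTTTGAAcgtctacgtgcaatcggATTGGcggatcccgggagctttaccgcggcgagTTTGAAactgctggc
Mki67: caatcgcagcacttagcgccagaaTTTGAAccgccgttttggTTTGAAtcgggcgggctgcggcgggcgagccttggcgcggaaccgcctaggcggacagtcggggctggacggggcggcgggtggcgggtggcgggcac
Ccnb2: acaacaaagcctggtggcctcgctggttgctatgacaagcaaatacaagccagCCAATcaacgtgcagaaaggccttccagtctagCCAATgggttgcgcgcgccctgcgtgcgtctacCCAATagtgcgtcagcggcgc
Mcm6: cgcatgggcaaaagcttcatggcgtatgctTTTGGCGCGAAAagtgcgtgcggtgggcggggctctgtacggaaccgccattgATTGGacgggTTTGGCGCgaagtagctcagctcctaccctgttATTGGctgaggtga
Mcm5: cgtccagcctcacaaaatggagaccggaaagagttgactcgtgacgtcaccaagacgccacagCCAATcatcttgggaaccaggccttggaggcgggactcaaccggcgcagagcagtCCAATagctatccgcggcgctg
Mcm2: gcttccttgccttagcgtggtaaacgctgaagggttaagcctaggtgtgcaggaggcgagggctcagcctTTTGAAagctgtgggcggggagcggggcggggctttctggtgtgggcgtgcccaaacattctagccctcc
The Cdk1 window held E2F, CCAAT and CHR letters, and it was the 1 mitotic member with E2F letters. The printed 140 bases of Mki67 held 2 CHR matches, and those of Ccnb2 held 3 CCAAT boxes. The longer windows counted above held further motifs outside the printed bases. These were CHR letters for Ccnb2, CCAAT boxes for Mki67 and Mcm2, and E2F letters for Mcm5. A motif missing from a printed sequence is therefore not always missing from the counted window. Mcm6 held E2F and CCAAT letters with no CHR. Mcm2 held a CHR and no E2F letters, and Mcm2 was among the members that varied least between libraries.

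Sequencing depth was 32197791 to 48170537 gene counts per library. Levels are given on either of these scales. CPM is the count of a gene set against the TMM-scaled total of its library, and it compares 1 gene between libraries. FPKM, as the authors deposited it, is per length and compares genes with each other. The first principal component of all genes held 51.9% of the variance over 14572 genes, and it set aspirin replicate 1 (score −152) at one end and aspirin-hydrogel replicate 3 (score 101) at the other, with the other 7 libraries between −49.2 and 39.2. Results are therefore given with and without these libraries. The closest pair of libraries still differed by a chi-square per degree of freedom of 70.5, so none was a copy of another. The muscle markers were present in every library, with 9 myofibre genes summing to 172761, 190216 and 315421 CPM in aspirin-hydrogel muscle, 24371, 145296 and 255954 CPM in aspirin muscle, and 105783, 167832 and 225621 CPM in control muscle.

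The members were expressed at low levels in all groups. Per length and averaged over the 9 libraries, the highest was Pcna at 14.9 FPKM, followed by Stmn1 at 8.40, Ube2c at 6.54 and Mki67 at 5.59 FPKM. Aspirin replicate 1 raised some of these means. Mki67 was 36.6 FPKM there and 0.167 to 4.58 FPKM in the other libraries, and Pcna was 50.1 and 4.78 to 18.8 FPKM. The lowest were Cenpf at 0.323, Ttk at 0.401 and Foxm1 at 0.407 FPKM. Summed over all 45 members, the level was 249, 228 and 132 CPM in aspirin-hydrogel muscle, 1353, 344 and 269 CPM in aspirin muscle, and 450, 223 and 250 CPM in control muscle. One aspirin library was thus far above all others, and one aspirin-hydrogel library was the lowest.

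**Figure D1:**
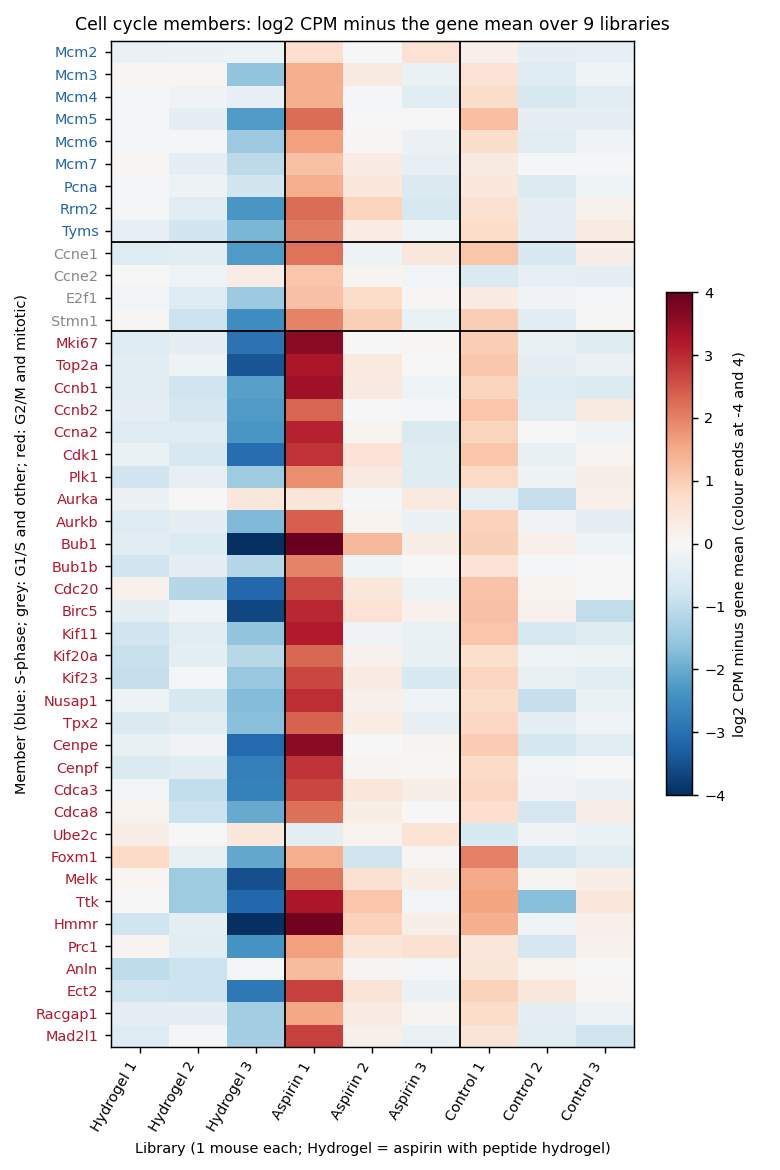
Level of each of the 45 members (rows) in each of the 9 libraries (columns), as log2 CPM minus the mean of that gene over all libraries. Red is above and blue below the gene's mean; aspirin replicate 1 is red in nearly every row and aspirin-hydrogel replicate 3 is blue in most.

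The same libraries stood at the ends for most members. Aspirin replicate 1 had the highest level of 43 of 45 members, while it was the highest library for 29.2% of all 18259 genes tested. Aspirin-hydrogel replicate 3 had the lowest level of 39 members, against 21.2% of all genes. Both held for 38 members, against 12.0% of all genes. Aspirin replicate 1 was followed by control replicate 1 in 35 members, against 9.73% of all genes. The 2 members in which aspirin replicate 1 was not the highest were Ube2c and Foxm1.

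Among the S-phase members, Mcm2 to Mcm7 encode the subunits of the replicative helicase. Mcm2 was 10.9, 11.3 and 11.6 CPM in aspirin-hydrogel muscle, 21.2, 13.0 and 19.6 CPM in aspirin muscle, and 15.2, 10.2 and 10.5 CPM in control muscle. The aspirin-hydrogel and aspirin libraries did not overlap, and the aspirin-hydrogel and control libraries did. Mcm5 was 5.81, 4.50 and 1.23 CPM in aspirin-hydrogel muscle, 28.2, 5.88 and 6.09 CPM in aspirin muscle, and 13.7, 4.56 and 4.65 CPM in control muscle. Its highest aspirin-hydrogel library was just below its lowest aspirin library, and inside the control range. The other subunits averaged 9.02 (Mcm3) to 13.1 CPM (Mcm7) in aspirin-hydrogel muscle, 16.8 (Mcm4) to 26.1 CPM (Mcm6) in aspirin muscle, and 11.5 (Mcm3 and Mcm4) to 18.6 CPM (Mcm7) in control muscle.

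Pcna, the sliding clamp of DNA polymerase, was 29.3, 26.3 and 18.3 CPM in aspirin-hydrogel muscle, 83.0, 40.9 and 20.3 CPM in aspirin muscle, and 40.5, 20.9 and 26.9 CPM in control muscle. Rrm2, the regulated subunit of ribonucleotide reductase, was 6.51, 4.96 and 1.33 CPM in aspirin-hydrogel muscle, 31.8, 12.6 and 4.32 CPM in aspirin muscle, and 10.3, 5.14 and 7.68 CPM in control muscle. Tyms, thymidylate synthase, was 2.39, 1.75 and 0.834 CPM in aspirin-hydrogel muscle, 12.8, 3.65 and 2.69 CPM in aspirin muscle, and 4.95, 2.30 and 3.81 CPM in control muscle. For Pcna and Rrm2 all 3 groups overlapped. The pseudogene Pcna-ps2 held 869 counts over all libraries, against 13480 for Pcna, so reads shared between them could move Pcna slightly.

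Mki67 encodes Ki-67, the coat protein of mitotic chromosomes and the usual stain for cycling cells. Its level was 14.6, 16.2 and 2.70 CPM in aspirin-hydrogel muscle, 254, 20.6 and 21.5 CPM in aspirin muscle, and 41.5, 17.0 and 14.9 CPM in control muscle. Every aspirin-hydrogel library was below every aspirin library, and 2 of the 3 aspirin libraries were inside the control range. Top2a, which untangles replicated DNA, was 8.78, 10.3 and 1.10 CPM in aspirin-hydrogel muscle, 114, 15.6 and 11.8 CPM in aspirin muscle, and 25.1, 9.11 and 10.2 CPM in control muscle. It had the same order of libraries at both ends.

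The cyclins and their kinase set entry into mitosis. Cdk1, the mitotic kinase, was 2.68, 2.06 and 0.367 CPM in aspirin-hydrogel muscle, 24.1, 4.76 and 2.29 CPM in aspirin muscle, and 6.93, 2.59 and 3.49 CPM in control muscle. Ccnb1, its cyclin partner, was 2.01, 1.51 and 0.567 CPM in aspirin-hydrogel muscle, 28.0, 3.47 and 2.34 CPM in aspirin muscle, and 4.95, 1.88 and 1.83 CPM in control muscle. For Ccnb1 the aspirin-hydrogel and aspirin libraries did not overlap, and for Cdk1 they did, through the third aspirin library. Ccna2, the cyclin of S phase and G2, averaged 3.41 ± 1.85 CPM in aspirin-hydrogel muscle, 22 ± 28 CPM in aspirin muscle and 8.02 ± 3.33 CPM in control muscle (SD, n = 3 each). Ccnb2 averaged 1.42 ± 0.79, 6.16 ± 6.22 and 3.69 ± 1.95 CPM in the aspirin-hydrogel, aspirin and control groups. Its pseudogene Ccnb2-ps held 368 counts against 1570 for Ccnb2, and Ccnb1-ps held 84 against 2260 for Ccnb1, so Ccnb2 is the less certain of the pair.

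Foxm1, the transcription factor of the mitotic genes, went against the other members in its highest library. It was 2.73, 1.30 and 0.367 CPM in aspirin-hydrogel muscle, 4.43, 0.914 and 1.66 CPM in aspirin muscle, and 6.62, 1.01 and 1.16 CPM in control muscle. Control replicate 1 was the highest, and the 3 groups overlapped.

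The mitotic kinases and the spindle checkpoint followed the common order, Aurka apart. Plk1, which drives centrosome maturation and mitotic exit, was 1.38, 1.87 and 0.868 CPM in aspirin-hydrogel muscle, 8.59, 3.0 and 1.66 CPM in aspirin muscle, and 3.97, 2.05 and 2.76 CPM in control muscle. Its aspirin-hydrogel libraries were all below the control libraries but overlapped with the aspirin libraries. Bub1, a checkpoint kinase at the kinetochore, was 0.774, 0.725 and 0 CPM in aspirin-hydrogel muscle, 17.2, 2.69 and 1.29 CPM in aspirin muscle, and 2.09, 1.25 and 0.960 CPM in control muscle. The 0 is a count of 0 in aspirin-hydrogel replicate 3, which allows up to 0.10 CPM, for counting error only. Hmmr, a spindle protein, also had a count of 0 in that library. Aurka, the spindle pole kinase, varied little, with 3.70, 4.44 and 6.01 CPM in aspirin-hydrogel muscle, 6.22, 4.24 and 5.72 CPM in aspirin muscle, and 3.53, 2.30 and 5.06 CPM in control muscle. Its partner Tpx2, which activates the kinase on the spindle, averaged 3.52 ± 1.41, 14.8 ± 14.9 and 7.10 ± 3.33 CPM in the aspirin-hydrogel, aspirin and control groups (SD, n = 3 each).

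Cdc20 activates the anaphase-promoting complex, the ligase that ends mitosis. It was 2.49, 0.997 and 0.234 CPM in aspirin-hydrogel muscle, 13.9, 2.98 and 1.94 CPM in aspirin muscle, and 4.99, 2.43 and 2.21 CPM in control muscle. Birc5 (survivin), of the chromosomal passenger complex, was 2.52, 2.93 and 0.234 CPM in aspirin-hydrogel muscle, 26.0, 4.83 and 3.60 CPM in aspirin muscle, and 7.28, 3.64 and 1.60 CPM in control muscle. Both were lowest in aspirin-hydrogel replicate 3 and highest in aspirin replicate 1.

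Ube2c, the ubiquitin-conjugating enzyme of the same complex, had another pattern. It was 22.1, 18.4 and 24.8 CPM in aspirin-hydrogel muscle, 14.2, 20.1 and 27.0 CPM in aspirin muscle, and 12.1, 16.7 and 15.3 CPM in control muscle. The aspirin-hydrogel libraries were all above the control libraries. Ube2c shares 592 exonic bases, 22.8% of its own, with Tnnc2 on the opposite strand, the gene of fast skeletal troponin C, which had 8174, 7448 and 13141 CPM in aspirin-hydrogel muscle, 1458, 6412 and 10602 CPM in aspirin muscle, and 3656, 6790 and 9213 CPM in control muscle. Whether strand was used in counting is not given, so reads of the 2 genes may not be told apart, and the part of Tnnc2 in the Ube2c counts was not tested. Overlaps with a neighbour on the opposite strand were also found for Kif20a (29.3% of exonic bases, with Cdc23), Ccne2 (17.4%, with Ints8), Ccna2 (12.5%, with Exosc9) and Prc1 (11.1%, with Rccd1). These 4 neighbours ranged from 4.50 to 31.3 CPM over the libraries.

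**Figure D2:**
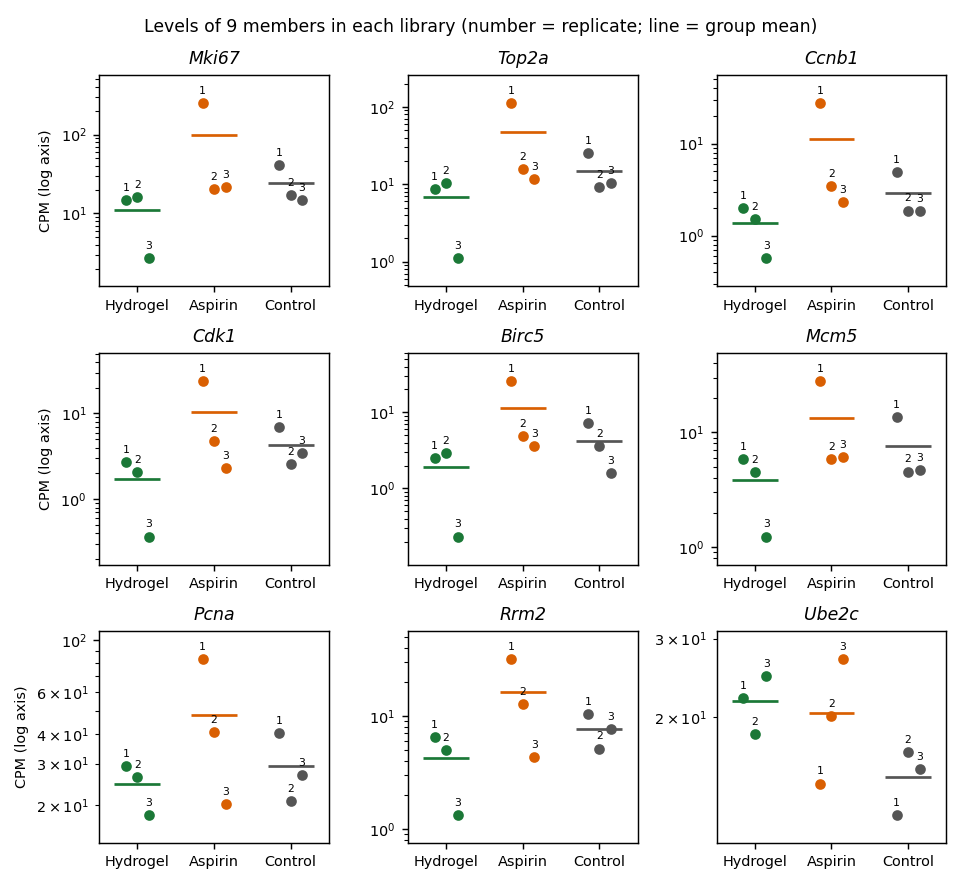
CPM (log axis) of 9 members in each library; points are mice, numbered by replicate, and lines are group means (Hydrogel in all plots is aspirin with hydrogel). Aspirin replicate 1 is the top point for all members shown except Ube2c, and the other aspirin libraries lie near the control libraries.

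Kinesins and most cytokinesis members had the same libraries at both ends. Kif11, the motor that separates the spindle poles, averaged 2.51 ± 0.936 CPM in aspirin-hydrogel muscle, 16.2 ± 21.3 CPM in aspirin muscle and 5.33 ± 3.94 CPM in control muscle (SD, n = 3 each). Racgap1, a part of centralspindlin, averaged 3.93 ± 1.41, 10.8 ± 6.40 and 6.78 ± 3.04 CPM in the same order. Ect2, the exchange factor that turns on RhoA at the cleavage furrow, was 0.774, 0.756 and 0.167 CPM in aspirin-hydrogel muscle, 9.2, 1.94 and 1.14 CPM in aspirin muscle, and 2.59, 1.88 and 1.40 CPM in control muscle. Every aspirin-hydrogel library of Ect2 was below every library of both other groups. Anln, the contractile ring scaffold, was an exception to the order at the low end, with 2.18, 2.42 and 4.20 CPM in aspirin-hydrogel muscle, 10.5, 4.76 and 4.20 CPM in aspirin muscle, and 6.17, 4.85 and 4.30 CPM in control muscle.

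The 4 remaining members belong to G1/S or to growth. E2f1, the transcription factor of S-phase entry, was 3.77, 2.81 and 1.47 CPM in aspirin-hydrogel muscle, 9.24, 6.70 and 4.14 CPM in aspirin muscle, and 5.08, 3.69 and 3.84 CPM in control muscle. All 3 aspirin-hydrogel libraries were below all 3 aspirin libraries. Ccne1, cyclin E1, was 1.16, 1.24 and 0.334 CPM in aspirin-hydrogel muscle, 7.73, 1.45 and 2.31 CPM in aspirin muscle, and 3.64, 1.09 and 2.04 CPM in control muscle. Ccne2, cyclin E2, was 6.31, 5.62 and 7.61 CPM in aspirin-hydrogel muscle, 13.5, 6.79 and 5.77 CPM in aspirin muscle, and 4.21, 4.94 and 4.83 CPM in control muscle. Both treated groups lay above the control libraries for Ccne2. The same held for Ints8, its neighbour on the opposite strand. Ints8 was 17.4, 18.8 and 23.1 CPM in aspirin-hydrogel muscle, 21.9, 20.8 and 17.5 CPM in aspirin muscle, and 15.2, 15.9 and 15.4 CPM in control muscle. The part of Ints8 in the Ccne2 counts was not tested. Stmn1, which destabilises microtubules, was 11.3, 6.08 and 1.94 CPM in aspirin-hydrogel muscle, 42.6, 20.8 and 8.92 CPM in aspirin muscle, and 21.3, 8.11 and 11.2 CPM in control muscle.

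The first comparison set aspirin with hydrogel against aspirin alone. These groups differ by the gel and also by the leading number of their sample codes, so gel and code number cannot be told apart. By edgeR's quasi-likelihood test on all genes, 0 of 45 members passed an adjusted p of 0.05, and 0 of 18259 genes (0.0%) did, and the smallest adjusted p of a member was 0.453. DESeq2 called 0 members and 156 genes (0.854%), and left 5 members (Mki67, Top2a, Kif11, Cenpe and Cenpf) without an adjusted p in each comparison. The smallest DESeq2 adjusted p of a member was 0.0518 (Ect2), followed by 0.0539 for Ccnb1 and Bub1, much nearer the threshold than in edgeR. The members nevertheless lay on one side: 44 of 45 had a negative log2 fold change, against 53.3% of all genes. At an unadjusted p under 0.05, 36 members were lower in aspirin-hydrogel muscle, against 7.61% of all genes. In 25 members the groups did not overlap, against 8.75% of all genes. The median log2 fold change was −2.06 over the members, against −0.05 over all genes.

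Single members of this comparison had wide errors. The 3 with the smallest p were Ect2 (log2 fold change −2.84 ± 0.87 SE), E2f1 (−1.32 ± 0.43) and Ccnb1 (−3.04 ± 0.99), each at an adjusted p of 0.453 in edgeR. Mki67 was at −3.14 ± 1.10, Top2a at −2.80 ± 1.04 and Cdk1 at −2.60 ± 0.97 on the same scale. Among the S-phase members, Rrm2 was at −1.93 ± 0.75, Mcm5 at −1.80 ± 0.80, Tyms at −1.94 ± 0.66, Pcna at −0.97 ± 0.48 and Mcm2 at −0.67 ± 0.25. Birc5 was at −2.59 ± 1.04, Cdc20 at −2.33 ± 0.95, Plk1 at −1.68 ± 0.62 and Foxm1 at −0.67 ± 0.95. Ccne1 was at −2.07 ± 0.78 and Stmn1 at −1.90 ± 0.73. The 95% interval of Mki67 ran from −5.64 to −0.65, and that of Ube2c (0.09 ± 0.27) from −0.51 to 0.69, so these data bound Ube2c much more closely.

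The median and the count at an unadjusted p rested on the libraries that stood apart, and the count of signs moved less. Groups that do not overlap stay apart when a library is left out. The overlap count therefore could not fall, and it is no check on these libraries. Without aspirin replicate 1, the median of the members was −0.81 and 1 member had an unadjusted p under 0.05. There 42 of 45 members were negative, and in 25 the groups did not overlap, against 12.3% of all genes. Without aspirin-hydrogel replicate 3, the median was −1.78 and 8 members were below that p. With both left out, the median was −0.52, 42 of 45 members were negative and 2 were below that p. In 26 members the groups then still did not overlap, but with 2 libraries a side 17.5% of all genes did the same. Leaving out aspirin replicate 1 moved Mki67 to −0.91, Cdk1 to −1.04 and Ect2 to −1.44.

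Aspirin with hydrogel was next set against untreated muscle. By edgeR, 0 of 45 members and 0 of 18259 genes (0.0%) passed, with a smallest adjusted p of 0.987 among the members. At an unadjusted p under 0.05 there were 0 members, against 3.92% of all genes, and DESeq2 called 0 members and 18 genes (0.0986%). The count at an unadjusted p moved with the fit: it was 9 lower and 1 higher without aspirin replicate 1 (3.37% and 3.08% of all genes), which is outside this comparison but enters the shared spread. It was 6 lower and 1 higher with only the 2 groups compared (3.45% and 3.23% of all genes), and 2 lower in DESeq2 (3.31% of all genes). In this comparison 42 of 45 members had a negative log2 fold change, against 52.9% of all genes, and their median was −0.99, against −0.03 for all genes. The groups did not overlap in 12 members that were lower, all of them mitotic, and in 2 that were higher, Ube2c and Ccne2. The same was true of 6.30% of all genes on the lower side and 6.85% on the higher side.

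The smallest p-values belonged to Ube2c (0.57 ± 0.27), Ect2 (−1.78 ± 0.84) and Melk (−1.78 ± 0.90), a kinase of mitotic cells, each at an adjusted p of 0.987 in edgeR. Mki67 was at −1.13 ± 1.03, Cdk1 at −1.34 ± 0.93, Plk1 at −1.09 ± 0.61, Tyms at −1.15 ± 0.65 and Mcm2 at −0.08 ± 0.25. Top2a was at −1.14 ± 0.99, Ccnb1 at −1.08 ± 0.94, Cdc20 at −1.36 ± 0.92, Birc5 at −1.14 ± 1.00 and Foxm1 at −0.99 ± 0.96. Mcm5 was at −0.99 ± 0.79, Rrm2 at −0.85 ± 0.73, Pcna at −0.26 ± 0.47, Ccne1 at −1.30 ± 0.76, E2f1 at −0.64 ± 0.42 and Stmn1 at −1.07 ± 0.71. The interval of Mki67 ran from −3.46 to 1.20, so neither a lower nor a higher level is set by these 6 mice. Without control replicate 1 the median of the members was −0.51 and 36 of 45 were negative. Without aspirin-hydrogel replicate 3 it was −0.66, with 42 negative. Of the members followed singly, Foxm1, Mcm2 and Pcna turned positive without control replicate 1.

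Aspirin alone was set against untreated muscle. Again 0 of 45 members and 0 of 18259 genes (0.0%) passed in edgeR, and the smallest adjusted p of a member was 0.753. DESeq2 called 0 members and 102 genes (0.559%). A positive log2 fold change was found in 44 of 45 members, against 54.0% of all genes, with a median of 0.97, against 0.05 for all genes. With the replicate number as a block, the median was 0.63, and 0 members and 0 genes were called. At an unadjusted p under 0.05, 2 members were higher, Ccne2 and Mcm2, against 3.09% of all genes. The groups did not overlap in 2 members, Ccne2 and Prc1, against 5.54% of all genes. Both members share exonic bases with a neighbour on the opposite strand.

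Ccne2 was at 0.90 ± 0.34, Mcm2 at 0.59 ± 0.25 and Mad2l1, a checkpoint protein, at 1.66 ± 0.78, each at an adjusted p of 0.753 in edgeR. Mki67 was at 2.01 ± 1.05, Ccnb1 at 1.96 ± 0.94, Top2a at 1.67 ± 1.00, Pcna at 0.71 ± 0.48 and Foxm1 at −0.33 ± 0.95. Birc5 was at 1.46 ± 1.00, Cdk1 at 1.26 ± 0.92, Cdc20 at 0.97 ± 0.90 and Plk1 at 0.59 ± 0.60. Rrm2 was at 1.08 ± 0.73, Mcm5 at 0.81 ± 0.78, Tyms at 0.79 ± 0.64, Ccne1 at 0.76 ± 0.74, E2f1 at 0.67 ± 0.42 and Stmn1 at 0.83 ± 0.70. This direction rested on aspirin replicate 1: without it the median was −0.14, and 15 members were positive and 30 negative. Mki67 was then at −0.23, Cdk1 at −0.31, Cdc20 at −0.40 and Mcm5 at −0.37. Without control replicate 1 the median was 1.32, and the groups did not overlap in 18 members, against 11.1% of all genes. Without aspirin replicate 3, 14 members had an unadjusted p under 0.05 on the higher side, against 7.58% of all genes. The 3 comparisons share their libraries in pairs, so their directions are not independent of each other.

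**Figure D3:**
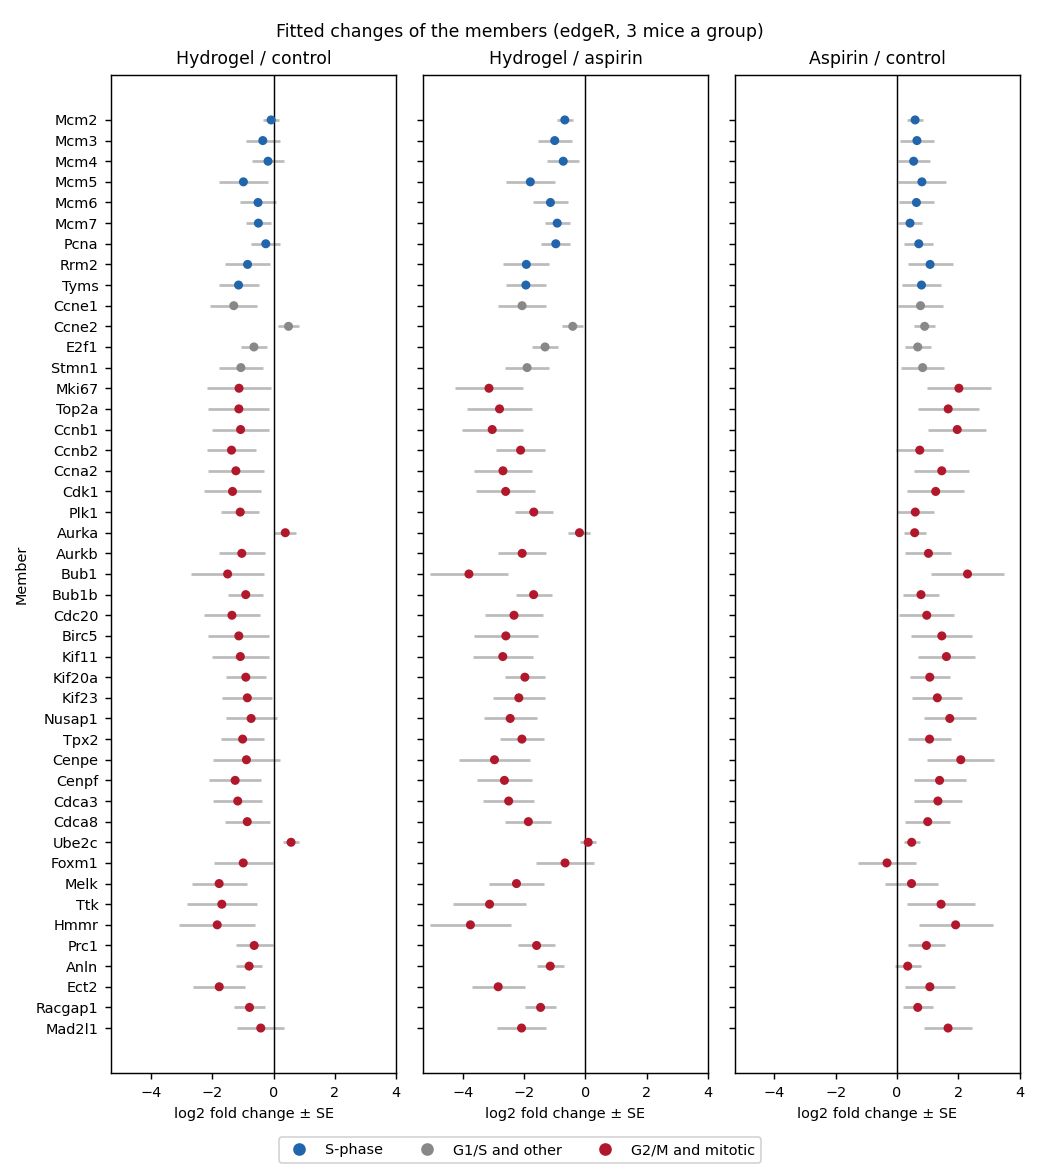
Fitted log2 fold change of each member in the 3 comparisons, with bars of 1 SE; colours are S-phase, G1/S and other, and mitotic members. Mitotic members lie farther from 0 than most S-phase members and have longer bars, and no member passed an adjusted p of 0.05.

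The S-phase and mitotic members were then compared. Mitotic members lay farther from 0 in each comparison: their median log2 fold change was −2.29 against −1.0 for S-phase members in aspirin with hydrogel against aspirin, −1.08 against −0.50 in aspirin with hydrogel against control, and 1.16 against 0.65 in aspirin against control. In aspirin with hydrogel against control these medians were −0.55 and −0.094 without control replicate 1, and −0.75 and −0.20 without aspirin-hydrogel replicate 3. In aspirin with hydrogel against aspirin they were −0.84 and −0.44 without aspirin replicate 1. In aspirin against control they were −0.19 and −0.067 without that library, the opposite sign. Mitotic members also spread more over the 9 libraries. The median distance of the highest from the lowest library was 4.72 log2 units for mitotic members and 3.03 for S-phase members. In aspirin replicate 1 the mitotic members lay 2.39 log2 units (median) above the control mean and the S-phase members 1.56. In aspirin-hydrogel replicate 3 the medians were −2.35 and −1.48 log2 units from the control mean.

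Within each library, the mean log2 CPM of S-phase members minus that of mitotic members was 1.95, 1.90 and 2.62 in aspirin-hydrogel muscle, 0.769, 1.63 and 1.49 in aspirin muscle, and 1.41, 1.57 and 1.68 in control muscle. The group means were 2.16 ± 0.40, 1.30 ± 0.46 and 1.56 ± 0.14 (SD, n = 3 each) for aspirin with hydrogel, aspirin and control. Every aspirin-hydrogel library was above every library of the other groups, including the 2 that did not stand apart. The gap to control was 0.60, and 0.37 without aspirin-hydrogel replicate 3. The gap to aspirin was 0.86, and 0.60 without aspirin replicate 1. The gap between aspirin and control was −0.26, and 0.00 without aspirin replicate 1. On log2 of deposited FPKM + 0.1, which damps genes near 0, the gaps of aspirin with hydrogel were 0.26 to control and 0.46 to aspirin. No test was made of this score, because the members were chosen with results of these libraries known.

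**Figure D4:**
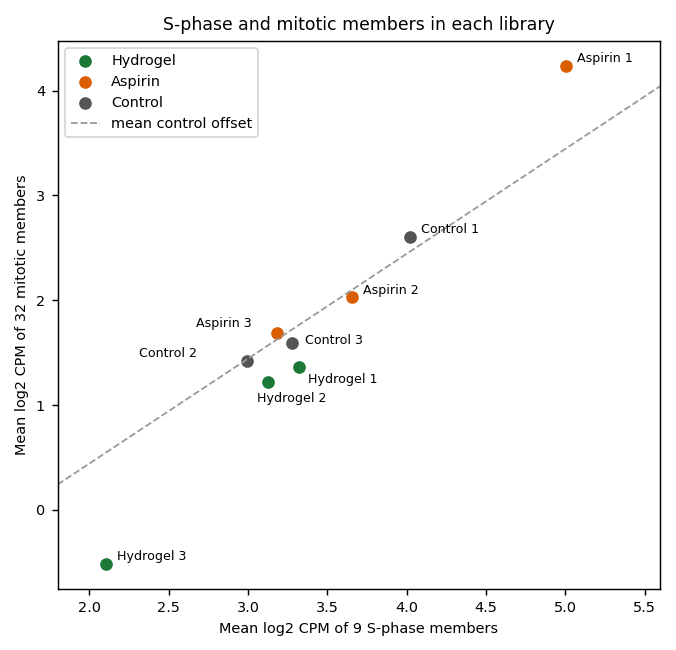
Mean log2 CPM of the 32 mitotic members (y) against that of the 9 S-phase members (x) in each of the 9 libraries; the dashed line has the mean control offset of 1.56. The 3 aspirin-hydrogel libraries lie below the line and aspirin replicate 1 lies above it at the upper right.

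Other genes of the pathway, from lists that do not hold the members, were also farther from 0 among mitotic genes than among S-phase genes. Of 50 other mitotic genes, 49 had a negative log2 fold change in aspirin with hydrogel against aspirin (median −1.98), 48 in aspirin with hydrogel against control (median −0.94), and 49 a positive one in aspirin against control (median 1.05). Of 36 other S-phase genes the medians were −1.07, −0.40 and 0.61. Of 13 other G1/S entry genes they were −0.38, −0.40 and 0.22. No gene of these lists passed in edgeR, and DESeq2 called 3 of the other mitotic genes in aspirin with hydrogel against aspirin. Of the other mitotic genes, 32 of 50 had an unadjusted p under 0.05 and lay lower in that comparison, against the 7.61% of all genes. These genes had the same end libraries as the members: aspirin replicate 1 was the highest for 49 of 50 and aspirin-hydrogel replicate 3 the lowest for 44. Without aspirin replicate 1 the medians of the other mitotic genes were −0.79, −0.95 and −0.12 in the same 3 comparisons, and 6 had an unadjusted p under 0.05 on the lower side in the first. Without aspirin-hydrogel replicate 3, 13 did, with a median of −1.71. With both left out, 2 did, with a median of −0.45.

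Named by smallest p, Sgo1, which guards centromere cohesion, was at −3.73 ± 0.91, and Rfc4, of the clamp loader for PCNA, was at −1.25 ± 0.37 in aspirin with hydrogel against aspirin (adjusted p = 0.453 in edgeR for both). E2f8, a repressor of E2F targets, was 0.855 ± 0.671 CPM in aspirin-hydrogel muscle, 4.42 ± 3.23 CPM in aspirin muscle and 3.56 ± 0.918 CPM in control muscle (SD, n = 3 each). Its aspirin-hydrogel libraries did not overlap with either other group (log2 fold changes −2.36 ± 0.74 against aspirin and −2.05 ± 0.74 against control). Shcbp1 was at −3.62 ± 0.95, Cdk2, a kinase of S-phase entry, at −1.27 ± 0.50, and Tk1, thymidine kinase, at −1.41 ± 0.49 in aspirin with hydrogel against aspirin (adjusted p = 0.453 in edgeR for each). Tk1 was at −0.87 ± 0.48 and Chaf1b, of the chromatin assembly factor, at −1.40 ± 0.50 in aspirin with hydrogel against control (adjusted p = 0.987 in edgeR for both). Pimreg was at −1.77 ± 0.62, Sgo1 at −2.20 ± 0.87 and Ccnd1, cyclin D1, at −0.78 ± 0.41 in that comparison, at the same adjusted p. In aspirin against control Rfc4 was at 1.26 ± 0.37, Cenpn, of the centromere, at 1.63 ± 0.59, Slbp, which binds histone mRNA, at 0.79 ± 0.35, and Cdc25c, the phosphatase that activates CDK1, at 2.43 ± 1.09 (adjusted p = 0.753 in edgeR for each). Cdk2 was at 0.88 ± 0.49 and Cdk4, the partner of cyclin D, at 0.45 ± 0.30 there, at adjusted p-values of 0.763 and 0.776 in edgeR.

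A list of 24 genes was made for brakes of the cycle, such as the CDK inhibitors. It also held Mdm2 and the Lin genes of MuvB, so its median is not that of brakes alone. The medians were near 0: −0.16 in aspirin with hydrogel against aspirin, −0.17 in aspirin with hydrogel against control and −0.05 in aspirin against control. Cdkn1a, the inhibitor p21, averaged 47.3 ± 17.6 CPM in aspirin-hydrogel muscle and 89.5 ± 13.8 CPM in control muscle, and its groups did not overlap (log2 fold change −0.92 ± 0.34, adjusted p = 0.987 in edgeR). Cdkn2c, the inhibitor p18, averaged 14.5 ± 2.66 CPM in aspirin muscle and 29.4 ± 3.76 CPM in control muscle (−1.02 ± 0.34, adjusted p = 0.753 in edgeR). It was at −0.70 ± 0.34 in aspirin with hydrogel against control. E2f4, a repressor E2F, averaged 30.6 ± 1.51 CPM in aspirin muscle and 24 ± 1.2 CPM in control muscle, and its groups did not overlap (0.35 ± 0.16, adjusted p = 0.753 in edgeR). In aspirin with hydrogel against aspirin, Btg1, an antiproliferative factor, was at −1.78 ± 0.72 and Gadd45a, a stress-induced growth arrest gene, at −1.41 ± 0.63 (adjusted p = 0.453 and 0.454 in edgeR).

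Markers of some cell types had the same end libraries as the members. The 9 B cell genes summed to 56.1, 129 and 1.84 CPM in aspirin-hydrogel muscle, 1285, 7.66 and 3.29 CPM in aspirin muscle, and 429, 76.3 and 4.42 CPM in control muscle. Ms4a1, a defining B cell gene, was 2.20, 14.1 and 0.234 CPM in aspirin-hydrogel muscle, 224, 0 and 0.0857 CPM in aspirin muscle, and 40.5, 2.30 and 0 CPM in control muscle. The highest and second highest libraries of the B cell sum were thus those of the members, and 5 of 9 genes were at 0 in at least 1 library. In 8 of 9 B cell genes aspirin replicate 1 was the highest library. The 12 macrophage genes matched 13 rows. These rows summed to 1197, 1446 and 688 CPM in aspirin-hydrogel muscle, 3183, 2951 and 1447 CPM in aspirin muscle, and 1144, 739 and 1836 CPM in control muscle. Both the highest and the lowest of these sums were in the libraries at the ends of the member order.

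Among other lists, the neutrophil sum also had its highest and lowest values in those 2 libraries. In at least 1 library, 4 of 11 neutrophil and 4 of 9 T and NK cell genes were at 0. The 11 neutrophil genes summed to 38.8, 20.9 and 11.2 CPM in aspirin-hydrogel muscle, 451, 32.9 and 200 CPM in aspirin muscle, and 125, 25.5 and 175 CPM in control muscle. The 9 T and NK cell genes summed to 31.5, 90.2 and 8.64 CPM in aspirin-hydrogel muscle, 160, 11.5 and 8.69 CPM in aspirin muscle, and 177, 38.7 and 22.7 CPM in control muscle. The 10 satellite cell and myoblast genes ranged from 103 to 129 CPM in aspirin-hydrogel muscle, 110 to 178 CPM in aspirin muscle and 83.1 to 165 CPM in control muscle. Pax7, the satellite cell factor, was lowest in aspirin replicate 1 at 1.68 CPM, against 4.71 to 10 CPM in the other 8 libraries. It went against the sum of its list, which was 173 CPM in that library, near the highest of 178 CPM. The 9 endothelial genes ranged from 328 to 505 CPM in aspirin-hydrogel muscle, 233 to 322 CPM in aspirin muscle and 394 to 691 CPM in control muscle. The myofibre sum given above was lowest in aspirin replicate 1 and highest in aspirin-hydrogel replicate 3, the reverse of the members. Fibroblast genes summed to 4047 to 6187 CPM in aspirin-hydrogel muscle, 5122 to 9616 CPM in aspirin muscle and 5648 to 9488 CPM in control muscle. Keratinocyte genes reached 126 CPM in control replicate 1 and at most 2.68 CPM elsewhere. The part of these cell types in the members' levels was not tested.

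**Figure D5:**
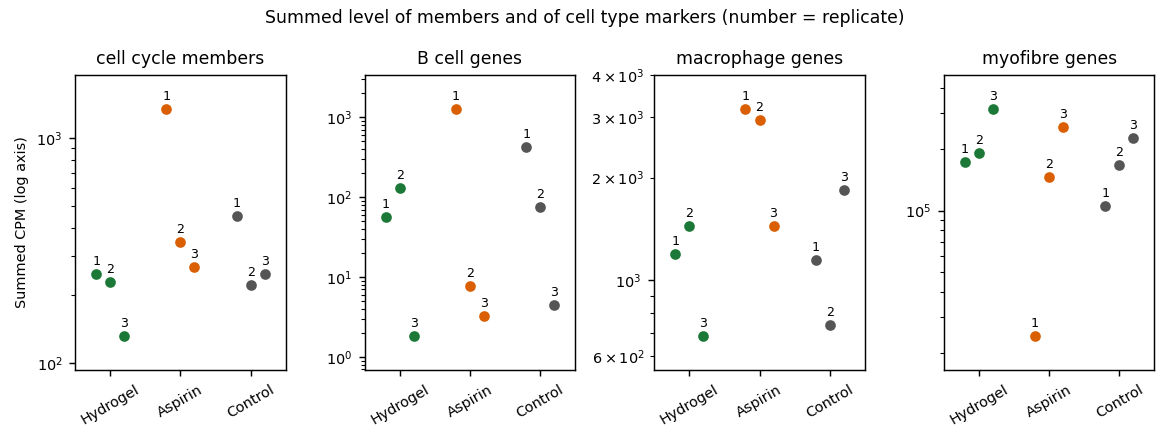
Summed CPM (log axis) of the 45 members and of B cell, macrophage and myofibre marker genes in each library, with points numbered by replicate. Aspirin replicate 1 is highest for the members, B cell and macrophage genes and lowest for the myofibre genes.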

How the data were processed

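Per the labels' protocols, 1 µg of leg muscle RNA went into each SMARTER mRNA-Seq library. The authors deposited raw gene counts and FPKM values for the 9 libraries, 1 column each. The genome build is mm10, per the submitters' processing notes, and the aligner, counter, annotation and strand setting were not given in the sources used. Deposited FPKM matched length-scaled counts within 10% in 399 of 403 nonzero values.

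Counts were tested with edgeR 4.0.16 (quasi-likelihood, robust, TMM scaling) in R 4.3.3 with limma 3.58.1. Genes were kept by a minimum count of 10 and a total of 15, which left 18259 genes. All 9 libraries shared 1 fit on group, with a biological coefficient of variation of 0.503, and p-values were adjusted by Benjamini-Hochberg over all genes tested. DESeq2 1.42.0 was an alternative. The script was tested on simulated data. Log2 CPM used a prior count of 1, and a count of 0 was bounded by 3 counts. Sums, promoter motifs and figures used Python 3.11.15, pandas 2.3.3, numpy 2.4.6 and matplotlib 3.10.9. Gene overlaps were read from GENCODE mm10 annotation and promoters from RefSeq GRCm38.p6. Alternatives were other scaling, no filter, DESeq2, a replicate block, only the groups compared, and leaving out each library. Leaving out aspirin replicate 1 and aspirin-hydrogel replicate 3 together was chosen after seeing the data.

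The members and lists were chosen with earlier results of these data known. All members could be named. Fold changes were given for 16 fixed members and for the 3 of smallest p in each comparison, and for the 2 genes of smallest p in each pathway list. Members named outside these rules for a library or an overlap were chosen after their values were seen. For control and aspirin, deviations from the group mean had correlations of 0.133 to 0.615 between libraries of the same replicate number. Between libraries of different numbers they ran from −0.534 to 0.419, so the ranges overlapped and no clear pairing was shown. The labels name no pairs, and the replicate number entered only as a block in an alternative fit.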

Additional observations from a re-analysis of the deposited data

How the results depend on the processing

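In edgeR, under every scaling, filter, block and library left out that was run, 0 members were called in the 3 comparisons. DESeq2 was run only on all 9 libraries with its own scaling. It also called 0 members, with 5 left without an adjusted p. Of 54 member fold changes followed, 15 changed sign when libraries were left out and 0 under any other setting. The cause of the moves was not tested. Over the left-out libraries, the median of all members ran from −1.25 to −0.51 in aspirin with hydrogel against control, from −2.42 to −0.52 in aspirin with hydrogel against aspirin, and from −0.14 to 1.38 in aspirin against control. For aspirin with hydrogel against control the S-phase median ran from −0.71 to −0.094 and the mitotic median from −1.37 to −0.55. For aspirin with hydrogel against aspirin the S-phase median ran from −1.37 to −0.20 and the mitotic median from −2.76 to −0.52. For aspirin against control the mitotic median ran from −0.19 to 1.65 and the S-phase median from −0.07 to 1.04. In aspirin against control the log2 fold changes ran from −0.23 to 2.63 for Mki67, −0.13 to 2.28 for Top2a, −0.0080 to 2.595 for Ccnb1, −0.31 to 1.77 for Cdk1, −0.34 to 1.01 for Plk1, −0.40 to 1.43 for Cdc20, −0.0049 to 2.12 for Birc5, −1.22 to 1.10 for Foxm1, −0.37 to 1.53 for Mcm5, −0.23 to 1.19 for Tyms and −0.28 to 1.29 for Ccne1. In aspirin with hydrogel against aspirin Foxm1 ran from −1.47 to 0.66. In aspirin with hydrogel against control Foxm1 ran from −1.81 to 0.44, Mcm2 from −0.21 to 0.13 and Pcna from −0.48 to 0.043. Of the S-phase minus mitotic gaps, that of aspirin with hydrogel to aspirin moved to 0.46 on deposited FPKM, against 0.86, and that to control to 0.26, against 0.60. With library size alone the median of all genes was −0.25, −0.51 and 0.27 for aspirin with hydrogel against control, aspirin with hydrogel against aspirin, and aspirin against control, and the members' medians were −1.25, −2.68 and 1.41, on the same side of it. With the replicate number as a block the members' medians were −0.97, −1.72 and 0.63 in that order, with 0 members called, and 0, 1 and 0 of all genes. Without aspirin replicate 3, 2 genes were called in aspirin with hydrogel against aspirin. Libraries of the same number also showed no clear pairing for aspirin-hydrogel and control (correlations −0.236 to 0.354) or aspirin-hydrogel and aspirin (−0.441 to 0.482). Depth limits the lowest members: 3 counts are 0.0554 to 0.10 CPM, close to the levels of Melk, Ttk, Bub1 and Hmmr in aspirin-hydrogel replicate 3.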
